A study of Mus musculus with 24 samples.

Results

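The regions described here are intervals of 5-hydroxymethylcytosine (5hmC) enrichment on mouse chromosome 6 that start between 30000000 and 60000000 (mm9), a window of 30 Mb around Cntnap2, which lies near 45 to 47.3 Mb. They were chosen by position alone, from each of the 5 deposited tables of 5hmC counts. The table that compared heterozygous with wild-type mice without prenatal stress held 566 such regions of 38107, and the table that compared the same genotypes after prenatal stress held 354 of 24982. The table of stressed heterozygous against unstressed wild-type mice held 462 of 31667, the table of stress in wild-type mice 486 of 33234 and the table of stress in heterozygous mice 454 of 32205. Over the 5 tables these were 1390 distinct coordinates of 94174. The question was whether DNA linked to the targeted allele differs in 5hmC between the genotypes.

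5hmC is made when TET enzymes oxidise 5-methylcytosine, and it is abundant in neurons, where it is found in the bodies of active genes. Enrichment sequencing counts the DNA fragments that carry the mark in a region and gives a relative level, not the share of cytosines modified. Cntnap2 encodes Caspr2, a neurexin-related adhesion protein that gathers potassium channels next to the node of Ranvier and is known for its links to autism and epilepsy. Background for the question is that a gene altered by targeting can keep flanking DNA from the strain of the stem cells used, since linked DNA is passed on together. The labels do not name the mutant allele or the strain in which it was made, so whether such DNA was present here was not tested.

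The study used striatum, taken by micropunch, from 12 female C57BL/6 mice. Mice were wild type (wt) or heterozygous (het) for Cntnap2, and their dams had either met variable stress for 7 days from embryonic day 12.5 (stress) or had not (control). That gave the groups wt control, wt stress, het control and het stress, with 3 mice each. The dams carried embryos of both genotypes, and all pups were ear-tagged on postnatal day 12 and weaned on day 18. The labels name no age at tissue collection.

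The labels give each mouse a 5hmC library and an RNA library, but for het control replicate 1 the animal numbers of these libraries differ, so they may come from different mice. The 5hmC counts summed to between 1033060 and 4331517 per library and table, and the regions around Cntnap2 held between 5 and 326 counts in a library. They were 1001 to 4035 bp wide, with medians from 1119 to 1153 bp over the tables. All of them passed the filter on low counts. The RNA libraries carried the striatal neuron markers: Ppp1r1b ranged from 1109 to 2759 TPM (a transcript's share of an RNA library scaled by its length). Markers of other tissues next to the striatum varied between libraries. Of the cortex markers, Slc17a7 ranged from 9.47 to 135 TPM, Neurod6 from 1.09 to 15.3 and Tbr1 from 0.77 to 7.06. Together these 3 summed to 11.3 to 82.2 TPM in het control, 110 to 152 in het stress, 27 to 137 in wt control and 13.7 to 139 in wt stress, so they were apart between het control and het stress. The 3 choroid plexus markers summed to 2.54 to 841 TPM in het control, 4.98 to 563 in het stress, 294 to 571 in wt control and 1.86 to 11.6 in wt stress. The 3 thalamus markers summed to 8.62 to 10.2 TPM in het control, 10.4 to 16 in het stress, 14.8 to 65.2 in wt control and 10.6 to 17.9 in wt stress, so they were apart between the unstressed genotypes and overlapped between the stressed ones. In bulk tissue, fewer cells of a type and less signal per cell cannot be told apart. Cntnap2 RNA, as the check of the labels, was 58.2 to 80 CPM (counts scaled to the library's total) in the 6 het mice and 73.9 to 130 in the 6 wt mice, so the genotypes overlapped.

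The Cntnap2 interval was among several sparse stretches of the window. In the genotype table of unstressed mice, 7 regions started between 45 and 47.3 Mb, which is 3.04 per Mb against 20.2 per Mb in the rest of the window. The other tables gave 1.3 against 12.7, 2.61 against 16.5, 2.17 against 17.4 and 2.17 against 16.2 per Mb, in the order stressed genotypes, stressed het against unstressed wt, stress in wt and stress in het. The megabase from 46 Mb held 0 or 1 region in every table, whereas the megabase from 33 Mb held 48 to 68, the most in the window. The megabases from 41 and 44 Mb held 0 regions in every table. The megabase from 45 Mb held 2 or 3 regions, and 7 or 8 megabases of the window and 26.7 to 31.3% of those of the genome held no more than it did. The median megabase held 7 to 10 regions over the genome and 9 to 15 in the window, depending on the table. The tables share mice and are not independent of each other. Of the regions around Cntnap2 in the table of wt mice only, 59.3% overlapped a region in the table of het mice only by 1 bp or more, against 58.2% of all its regions. In the reverse direction these shares were 62.8% and 60.1%.

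**Figure D1:**
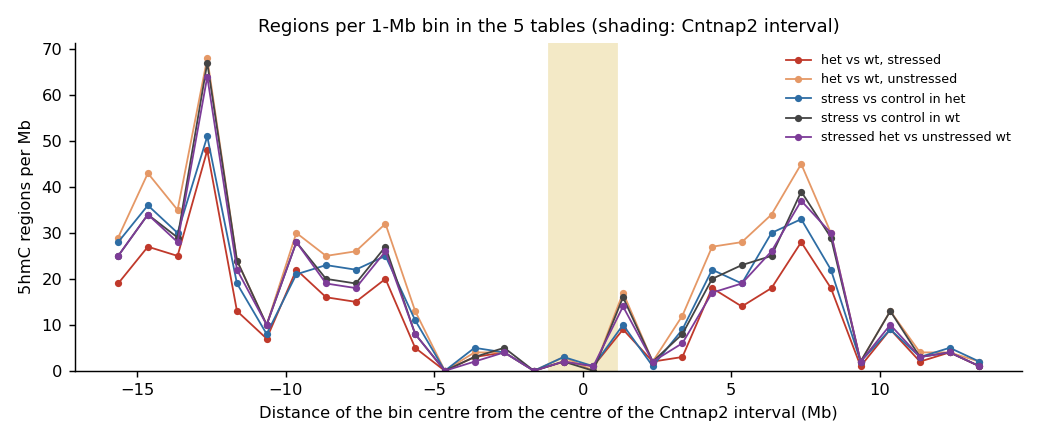
Number of 5hmC regions per 1-Mb bin (y axis) against the distance of the bin centre from the centre of the Cntnap2 interval in Mb (x axis), for the 5 tables. The shaded Cntnap2 interval sits in a trough that reaches 0 or 1 region per Mb, and the peak of 48 to 68 regions lies about 13 Mb before it in every table.

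A region 10.55 Mb before the Cntnap2 interval carried less 5hmC in het mice. It lies at chr6:34450938-34451949 (mm9, 1012 bp); which gene, if any, it lies in was not analysed here. In unstressed mice the counts were 38, 51 and 32 in het control and 47, 144 and 107 in wt control. Scaled to the table's totals with TMM factors, these were 18.1, 15 and 11.6 CPM in het control against 23.4, 33.1 and 33.5 CPM in wt control. All 3 het libraries were below all 3 wt libraries. The difference was -1.07 ± 0.175 (SE) on the log2 scale, with an adjusted p of 0.00271 by edgeR's quasi-likelihood test over all 38107 regions. It was the only region called in that table (0.00262% of all), so 1 of the 566 regions around Cntnap2 passed and 0 of the rest. The call rests on the tool and on 2 libraries: DESeq2 gave -1.045 with an adjusted p of 0.398, and edgeR's test made no call without het control replicate 3 or wt control replicate 3, with an adjusted p of up to 0.391. The thalamus markers named above were apart between the same groups, and their part in the difference was not tested.

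The same region was listed with the same coordinates in the table of stressed het against unstressed wt mice, and its counts in het stress were 41, 30 and 31. There it was 16.9, 23.6 and 20 CPM in het stress against 26.5, 38.1 and 38.4 CPM in wt control, again without overlap. The difference was -0.86 ± 0.179 (log2, adjusted p = 0.0412 by edgeR's test), and it was the only 1 of the 462 regions called; 3 regions of the whole table were (0.00947%). This comparison shares its wt control libraries with the unstressed one and is not a separate observation of them. DESeq2 gave -0.819 with an adjusted p of 1. With library totals in place of TMM scaling it was -0.884 with an adjusted p of 0.113 by edgeR's test, so the call was lost. Without 1 library the difference stayed between -0.969 and -0.707, but the call was kept only when the library left out was wt control replicate 1, with an adjusted p of 0.00196 by edgeR's test. In the table of stress in wt mice, the region held 49, 66 and 88 counts in wt stress. The wt stress and wt control libraries overlapped there, at -0.045 ± 0.149 (log2, adjusted p = 0.955 by edgeR's test). The region was in neither the table of stressed genotypes nor that of stress in het mice.

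Since a region listed with the same coordinates in several tables had the same count for a library each time (200496 of 200496 repeats), 16107 regions had counts for all 12 libraries, and 217 of these lie around Cntnap2. On this set the region was 56.2, 44.4 and 36 CPM in het control and 42.8, 60.1 and 50.1 CPM in het stress. It was 66.6, 94.8 and 96.3 CPM in wt control and 86.6, 89.1 and 94.4 CPM in wt stress. Every het library was below every wt library, and the highest het and lowest wt values were 60.1 and 66.6 CPM. The means were 48.3 ± 8.95 CPM in het and 88 ± 11.1 CPM in wt (SD, n = 6). Averaged over both prenatal conditions, the fitted difference was -0.93 ± 0.128 (log2), a fitted ratio of 0.526, with an adjusted p of 1.95e-06 by edgeR's test. It was the only region called of 16107 (0.00621%). The region entered this set only through tables that hold wt control, a group in which it was high. Both tables without wt control lack it. Fits without 1 library and with DESeq2 use the same set of regions. The part of this listing in the call was not tested.

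That call was made in each of 12 fits that left out 1 library: the difference ranged from -0.99 to -0.85 and the adjusted p of edgeR's test from 4.48e-08 to 0.000227. DESeq2 also called it, with an adjusted p of 0.000351. The 12 libraries include those of the unstressed table, so these fits are not a separate observation of its call. Within the 12-library fit the difference was -0.98 in unstressed mice (adjusted p = 0.00209 by edgeR's test) and -0.87 ± 0.19 in stressed mice (adjusted p = 0.219). The call in unstressed mice was lost with DESeq2 and without het control replicate 2 or 3 or wt control replicate 2 or 3. In those fits the smallest adjusted p of the 217 regions was 0.264 with DESeq2 and 0.0775 to 0.411 by edgeR's test. The difference between the conditions, the interaction, was 0.11 ± 0.261 (adjusted p = 0.974 by edgeR's test), so a dependence on prenatal stress was not detected. The stress effect at the region was 0.089 ± 0.131 (log2, adjusted p = 0.899).

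Of the regions with all 12 libraries, those next to the called region did not show the difference. The nearest with all 12 libraries, chr6:34433954-34435100, starts 17 kb before it and was 68.1 to 107 CPM in het and 67.5 to 107 CPM in wt. The nearest after it starts 124.1 kb away, at chr6:34575045-34576202, and was 28 to 84.3 CPM in het and 31.8 to 56.7 CPM in wt. The genotypes overlapped in both. Over the 3 regions on each side, out to 349.4 kb before and 174 kb after, the log2 difference was between -0.19 and 0.079. By edgeR's test the unadjusted p was between 0.161 and 0.923 and the adjusted p between 0.995 and 0.999. Regions without all 12 libraries were not looked at for this.

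**Figure D2:**
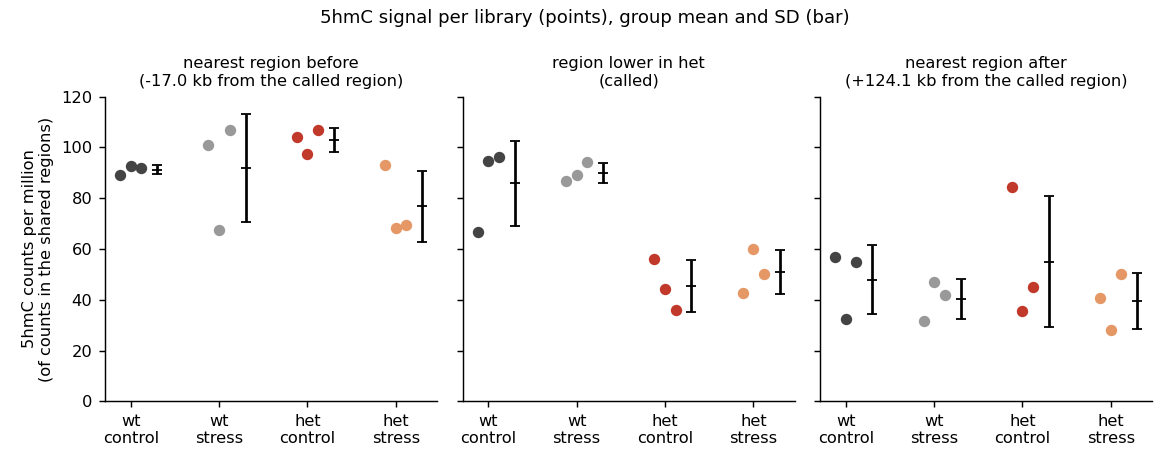
5hmC CPM (y axis), scaled to the counts in the shared regions with TMM factors, for each of 12 libraries (points) in 4 groups. The called region and the nearest region with all 12 libraries on each side are shown, with the group mean and SD beside the points. At the called region the 6 het libraries lie at 36 to 60.1 and the 6 wt libraries at 66.6 to 96.3, while at its neighbours the genotypes overlap.

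Over the whole window, the unstressed genotype table leaned towards lower values in het mice without further calls. Of the 566 regions, 54 (9.54%) had an unadjusted p under 0.05, against 7.51% of all and 8.65% of chromosome 6 outside the window. Of these, 33 were lower and 21 higher in het, where 3.87% and 3.64% of all regions were. The groups did not overlap at 96 regions (17%, against 13.7% of all). The median log2 difference was -0.042 over the regions around Cntnap2, -0.001 over all regions and -0.005 over chromosome 6 outside the window, and 58.3% of the regions were lower in het against 50.1% of all. With library totals in place of TMM scaling these medians were -0.015 around Cntnap2 and 0.026 over all regions, so both moved up. These are descriptions of many neighbouring regions in 6 mice, and none was tested as a group. The table of stress in wt mice holds no het mice but the same wt control libraries, and it leaned too. There 57% of the regions around Cntnap2 were lower after stress, against 50.6% of all, with medians of -0.033 and -0.004. The part of the shared wt control libraries in the lean between genotypes was not tested.

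The lean differed along the window, and the stretches were not tested against each other. Of all regions of the unstressed table, 7.51% had an unadjusted p under 0.05, 3.87% lower and 3.64% higher in het. From 30 to 35 Mb, 25 of 199 regions did (12.6%), 17 lower and 8 higher. At any p, 63.8% of the 199 were lower, with a median of -0.07 (log2). From 35 to 40 Mb there were 13 of 123 (10.6%), 10 lower and 3 higher, and 55.3% were lower at any p (median -0.032). From 40 to 45 Mb there were 2 of 21 (9.52%), 1 lower and 1 higher, and 66.7% were lower at any p (median -0.033). After the interval, from 47.3 to 52.3 Mb, 8 of 86 regions passed (9.3%), 2 lower and 6 higher. From 52.3 to 60 Mb 5 of 130 passed (3.85%), 3 lower and 2 higher. In this last stretch 57.7% of the regions were lower at any p (median -0.038), about as from 35 to 40 Mb. In stressed mice the stretch from 30 to 35 Mb gave 4 of 132 regions (3.03%, against 7.41% of all), 0 lower and 4 higher. The lean seen in unstressed mice was thus not seen there, and this difference between the tables was not tested. In the same stretch, 60.3% of 179 regions were lower after stress in wt mice (median -0.053). For stressed het against unstressed wt mice, 54.9% of 173 were lower (median -0.026). These last comparisons share the wt control libraries with the unstressed genotype table, and the stressed genotype table does not.

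Among single regions of the unstressed table, chr6:33706126-33707260 was 14.8, 14.7 and 13.1 CPM in het control against 22.4, 24.6 and 20.4 CPM in wt control. The groups were apart, at -0.68 ± 0.177 (log2, adjusted p = 0.598 by edgeR's test). In the other direction, chr6:32201217-32202953 was 39, 32.9 and 31.9 CPM in het control against 23.4, 22.8 and 23.8 CPM in wt control. It too was apart without passing adjustment, at 0.56 ± 0.148 (log2, adjusted p = 0.598). In the table of stress in het mice the same region was lower after stress (-0.45, adjusted p = 0.316 by edgeR's test); that comparison shares the het control libraries. The remaining regions named by rank were chr6:31667634-31669071 (0.48) and chr6:40179700-40180900 (0.51), higher in het, and chr6:36848100-36849129 (-0.53), lower in het, on the log2 scale and each with an adjusted p of 0.598. The region with most counts, chr6:52715499-52719337, was 74.2 ± 6.7 CPM in het control and 73.6 ± 1.23 CPM in wt control (SD, n = 3).

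**Figure D3:**
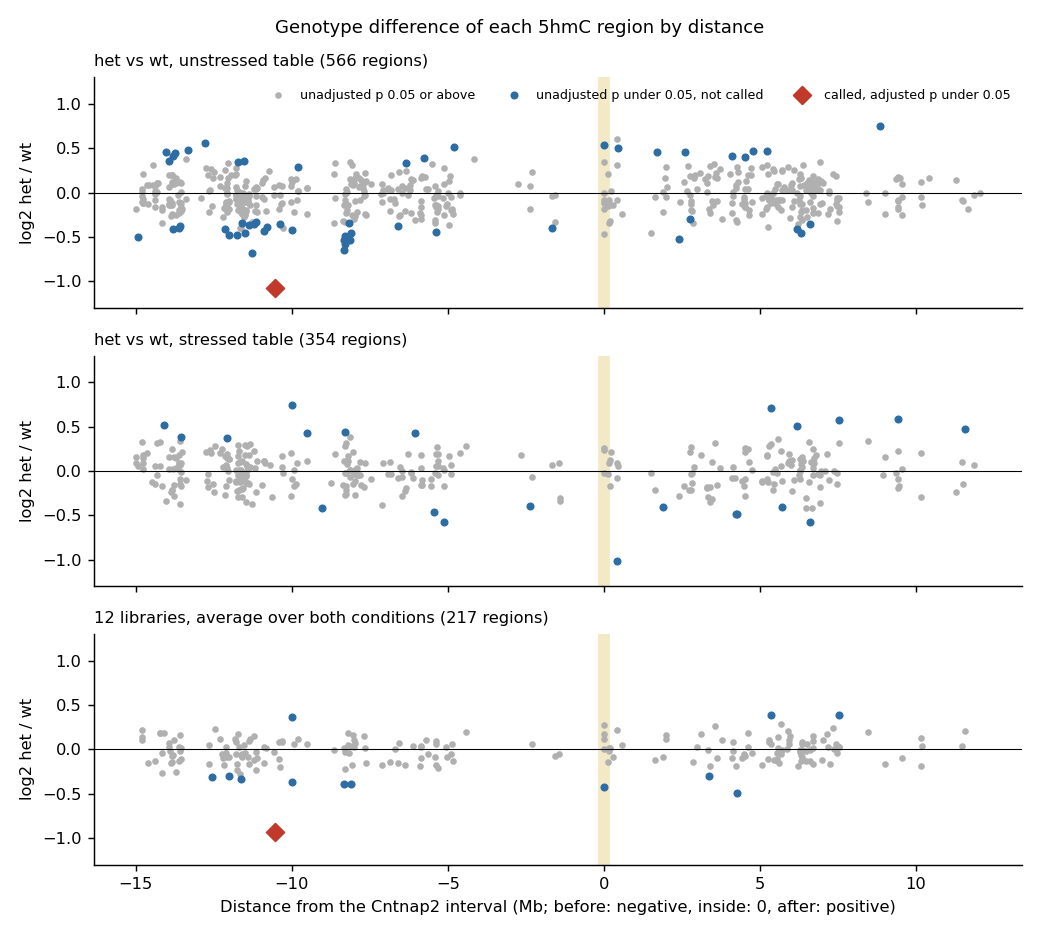
Log2 ratio of het to wt for each 5hmC region (y axis) against its distance from the Cntnap2 interval in Mb (x axis, 0 inside the interval), in the unstressed table (566 regions), the stressed table (354) and the fit over 12 libraries (217). The red diamond, 10.55 Mb before the interval, is the only called region, at -1.07 in the upper panel and -0.93 in the lower; blue points have an unadjusted p under 0.05.

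In stressed mice none of the 354 regions was called by edgeR's test or by DESeq2, and none of the 24982 regions of the table was by edgeR's test (0%). An unadjusted p under 0.05 was found at 22 regions (6.21%, against 7.41% of all), 12 higher and 10 lower in het, where 3.63% and 3.78% of all regions were. The groups did not overlap at 42 regions (11.9%, against 12.9%). The median log2 difference was 0.006, against -0.006 over all regions. The counts of regions apart or nominally different were thus at or under the level of the whole table.

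The smallest p of the whole stressed table fell on a region 0.43 Mb after the Cntnap2 interval, chr6:47727622-47728670. Its counts were 42, 15 and 14 in het stress and 28, 48 and 85 in wt stress, or 21.1, 14.5 and 10.9 CPM against 23.3, 30.1 and 42.1 CPM. The groups were apart but het stress replicate 1 and wt stress replicate 1 lay close together, at -1.01 ± 0.214 (log2, adjusted p = 0.148 by edgeR's test). Without het stress replicate 1 the region was called, at -1.40 with an adjusted p of 0.01, and without wt stress replicate 1 the adjusted p was 0.00522. The overlapping region of the unstressed table, chr6:47727608-47728699, went the other way without separating the groups: it held 34, 145 and 67 counts in het control and 18, 126 and 45 in wt control. In the table of stress in het mice it was 17.1, 11.9 and 9.08 CPM in het stress against 18.5, 49.4 and 27.8 CPM in het control, at -1.32 ± 0.43 (log2, adjusted p = 0.399 by edgeR's test). The values of this region ranged widely between mice of a group, with replicate 2 the highest of each control group.

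The other regions with small p in stressed mice were each named by rank and none passed adjustment. Higher in het stress were chr6:34997471-34998667 (0.75, adjusted p = 0.532 by edgeR's test), chr6:52664635-52665636 (0.70) and chr6:56721621-56722692 (0.58) on the log2 scale. At the first of these, het stress was 22.1, 30.9 and 32 CPM and wt stress 17.4, 14.4 and 16.8 CPM, without overlap. Lower in het stress were chr6:53898700-53900127 (-0.57) and chr6:39559600-39561112 (-0.47). The region with most counts, chr6:52516800-52519727, was 90.8 ± 7.32 CPM in het stress and 77.6 ± 12.9 CPM in wt stress (SD, n = 3), and the groups overlapped.

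The unstressed and stressed genotype tables share no mice, and 250 of their regions around Cntnap2 pair up by at least 50% reciprocal overlap. Across these pairs the log2 differences had a Pearson r of -0.148 and a Spearman rho of -0.134, and 104 pairs (41.6%) had the same sign. Over all 15877 pairs of the genome r was -0.126 and 46.4% had the same sign. These are correlations across regions, which are not independent replicates: all regions of a table share its 6 libraries. In both sets fewer than 50% of the pairs kept their sign.

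The groups were apart in the same direction in both tables at 2 pairs (0.8%, against 63 pairs or 0.397% of all). The pair at chr6:33706126-33707260, lower in unstressed het mice as described above, was 23.6, 21.2 and 23.4 CPM in het stress against 29.1, 28.2 and 31.2 CPM in wt stress at chr6:33705999-33707184 (-0.37 ± 0.193 on the log2 scale, adjusted p = 0.683 by edgeR's test). The pair at chr6:33261600-33263299 was higher in het: 38.1, 28.2 and 30.9 CPM in het control against 24.9, 25.8 and 24.5 CPM in wt control. Its partner chr6:33261739-33263294 was 38.2, 37.6 and 38.2 CPM in het stress against 26.6, 35.7 and 37.2 CPM in wt stress (0.17 ± 0.172 on the log2 scale, adjusted p = 0.844). The called region at 34450938 has no partner in the stressed table and is not among the pairs.

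**Figure D4:**
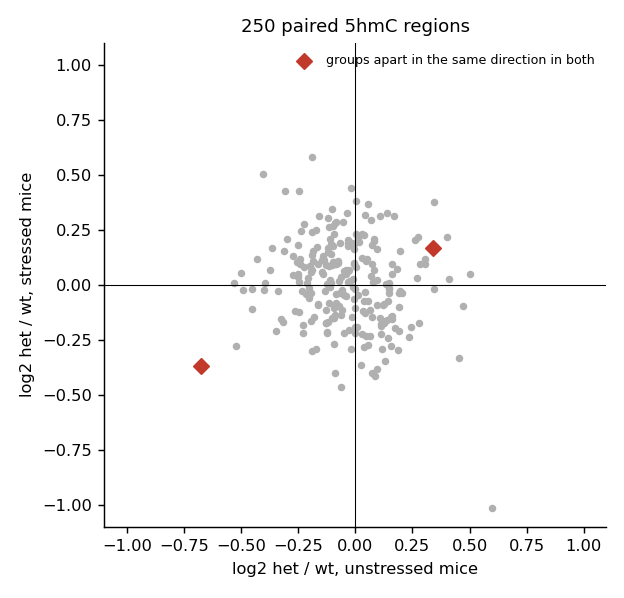
Log2 ratio of het to wt in stressed mice (y axis) against that in unstressed mice (x axis) for 250 paired 5hmC regions around Cntnap2. The cloud has no upward slope (Pearson r -0.148), and red diamonds mark the 2 pairs whose groups are apart in the same direction in both tables.

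In the fit over 12 libraries, 13 of the 217 regions had an unadjusted p under 0.05 for the genotype average. That is 5.99%, against 4.19% of all regions and 5.16% of chromosome 6 outside the window. Of the 13, 10 were lower and 3 higher in het, where 2.03% and 2.16% of all regions were. All 6 het libraries were apart from all 6 wt libraries at 2 regions (0.922%, against 25 of 16107 or 0.155%), the called region and chr6:35003288-35004289. The latter was 34.5 to 43.6 CPM in het and 46 to 60.7 CPM in wt, with means of 40.9 ± 3.39 and 52.3 ± 5.41 CPM (SD, n = 6). Its difference of -0.37 ± 0.141 (log2) had an adjusted p of 0.995 by edgeR's test. It lies outside the rule for named regions and was picked after its values were seen. Next by p were chr6:51555400-51556617, at 43 CPM in het against 60.7 CPM in wt (-0.49 ± 0.139 on the log2 scale), and chr6:36879098-36880099, at 38 against 50.6 CPM (-0.40 ± 0.146). At both, 1 or more het libraries overlapped the wt range, and both had an adjusted p of 0.995.

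Higher in het by rank were chr6:52664635-52665636 (0.38 ± 0.158), chr6:34997471-34998667 (0.36 ± 0.15) and chr6:54826600-54827600 (0.39 ± 0.161), on the log2 scale and each with an adjusted p of 0.995 by edgeR's test. No region around Cntnap2 was called for the interaction of genotype and stress by edgeR's test or by DESeq2 (0%), and 6 of 217 had an unadjusted p under 0.05 (2.76%, against 6.71% of all). Averaged over genotypes, stress gave 0 calls around Cntnap2 by edgeR's test, with 19 regions at an unadjusted p under 0.05 (8.76%, against 8.28% of all) and 1 call in the whole set (0.00621%). With regions paired by 50% overlap instead, edgeR's test called 49 of 250 (19.6%) for stress, against 3202 of 15877 (20.2%). In that alternative the stressed and control libraries are counted over different coordinates in all but 6 of the 250 pairs, so stress and the choice of coordinates cannot be told apart.

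Inside the Cntnap2 interval no 5hmC region was called in any comparison. Of its 7 regions in the unstressed table, chr6:47263485-47264592 had the smallest p: 14.8, 13.8 and 12.7 CPM in het control against 14.4, 9.2 and 6.27 CPM in wt control, at 0.54 ± 0.245 (log2, adjusted p = 0.645 by edgeR's test). The groups overlapped through wt control replicate 1, and without 1 library the difference ranged from 0.304 to 0.787. At chr6:47224146-47225210 het control was 3.81, 10.3 and 9.44 CPM and wt control 12.9, 9.43 and 12.9 CPM, at -0.46 ± 0.274 (log2, adjusted p = 0.705 by edgeR's test). Here too the groups overlapped, and without 1 library the difference ranged from -0.708 to -0.207.

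The region at chr6:47224146-47225210 was the only 1 of the 5 interval regions in the 12-library fit with an unadjusted p under 0.05. It was 11.8 to 30.5 CPM in het and 17.7 to 37.8 CPM in wt, with overlap (-0.43 ± 0.202 on the log2 scale, adjusted p = 0.995 by edgeR's test). The other named regions of the interval were smaller in difference. In unstressed mice chr6:45950112-45951123 was 13.9 ± 3.97 CPM in het control and 11.1 ± 2.44 CPM in wt control, and chr6:45550614-45551899 was 12.4 ± 3.71 and 14.6 ± 4.75 CPM (SD, n = 3). In stressed mice chr6:46960509-46961561 was 21.4 ± 3.5 CPM in het stress and 17.4 ± 2.45 CPM in wt stress, chr6:45550781-45551899 was 21.1 ± 5.96 and 18.2 ± 1.55 CPM, and chr6:45950092-45951135 was 19.5 ± 1.26 and 19.7 ± 1.2 CPM (SD, n = 3).

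No region around Cntnap2 passed the threshold for stress in either genotype. In wt mice 0 of 486 regions were called by edgeR's test or by DESeq2 (0%), and 41 (8.44%, against 8.85% of all) had an unadjusted p under 0.05, 29 lower and 12 higher after stress, where 4.35% and 4.5% of all regions were. The groups did not overlap at 71 regions (14.6%, against 13.9% of all). The median log2 difference was -0.033, against -0.004 over all regions. In het mice 0 of 454 regions were called by either tool, against 2 of 32205 by edgeR's test (0.00621%), and 33 (7.27%, against 9.95% of all) had an unadjusted p under 0.05, 19 lower and 14 higher, where 5.04% and 4.91% of all regions were. The groups did not overlap at 59 regions (13%, against 15.4%). Without het control replicate 1 or 3, 1 region was called by edgeR's test in het mice, the variable one at chr6:47727608-47728699 described above.

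The choroid plexus marker sums above were apart between wt control and wt stress, and the cortex and thalamus sums between het control and het stress; their part in the stress comparisons was not tested. The smallest p in wt mice was at chr6:53503500-53504688, with 15.1, 15.9 and 10.2 CPM in wt stress against 21.4, 19.3 and 27.5 CPM in wt control (-0.75 ± 0.203 on the log2 scale, adjusted p = 0.302 by edgeR's test). The groups were apart. In het mice it was at chr6:51395408-51396436, with 16.3, 11.9 and 12.3 CPM in het stress against 23.9, 21.1 and 24.5 CPM in het control (-0.71 ± 0.208, adjusted p = 0.189). Higher after stress were chr6:51557163-51558317 in wt mice (0.65, adjusted p = 0.36) and chr6:32757723-32759099 in het mice (0.64, adjusted p = 0.19), on the log2 scale and by edgeR's test. The other regions named by rank were chr6:53274494-53275548 (-0.69), chr6:51085800-51086986 (-0.66), chr6:39877195-39879052 (0.37) and chr6:30957700-30958799 (0.45) in wt mice. In het mice they were chr6:38078500-38080258 (-0.51), chr6:40036458-40038336 (0.50) and chr6:30899666-30900784 (0.69).

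In the comparison of stressed het with unstressed wt mice, 32 of 462 regions (6.93%, against 7.15% of all) had an unadjusted p under 0.05, 23 lower and 9 higher in stressed het mice, where 3.31% and 3.84% of all regions were. The groups did not overlap at 55 (11.9%, against 12.3%). Below the called region, the smallest p in each direction were at chr6:51555400-51556617 (-0.70, adjusted p = 0.448 by edgeR's test) and chr6:32232667-32233750 (0.56, adjusted p = 0.589), with chr6:32432877-32434325 (-0.59), chr6:34997471-34998667 (0.50) and chr6:58873768-58875189 (0.55) next, all on the log2 scale. Genotype and prenatal stress cannot be told apart in this comparison.

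The share of all 5hmC counts that fell around Cntnap2 overlapped between the genotypes, but not under every choice of total. In unstressed mice it was 1.25, 1.27 and 1.25% in het control and 1.24, 1.29 and 1.25% in wt control, with overlap (two-sided exact permutation test, p = 1, smallest possible 0.1). In stressed mice it was 1.11, 1.1 and 1.07% in het stress and 1.01, 1.15 and 1.15% in wt stress, again with overlap (exact permutation test, p = 0.9). A single region held 10.4 to 13.3% of the counts of an unstressed library. With it left out of the totals, the unstressed share was 1.41 to 1.42% in het control and 1.43 to 1.46% in wt control, apart at the smallest p that 3 against 3 mice allow (exact permutation test, p = 0.1), while in stressed mice wt stress (1.32 to 1.38%) spanned het stress (1.36% in each). Of the interval alone, the share in stressed mice was 0.00575 to 0.00665% in het stress and 0.00549 to 0.00559% in wt stress, also apart (exact permutation test, p = 0.1), and in unstressed mice it overlapped. Over the regions with 12 libraries the means were 1.27 ± 0.0198% in het and 1.28 ± 0.0283% in wt (SD, n = 6; exact permutation test, p = 0.303).

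RNA gave no called gene around Cntnap2. The 20 tested genes on each side of it in chromosome order, 40 in all, were compared between 6 het and 6 wt mice; 0 were called by edgeR's test or by DESeq2, where edgeR's test called 1 of 15955 genes (0.00627%). None had an unadjusted p under 0.05 for the genotype average, against 0.708% of all genes, and 13 were higher and 27 lower in het. Their median log2 difference was -0.033, against 0.001 over all genes. The RNA libraries summed to 21410120 to 24039691 expected counts in het and 13587052 to 18538268 in wt. Depth was thus apart between the genotypes, and its part in these comparisons was not tested. Cntnap2 itself was 76.5, 58.2 and 70.5 CPM in het control, 73.2, 68.7 and 80 in het stress, 76.8, 73.9 and 112 in wt control and 80.6, 82.7 and 130 in wt stress. The third replicate of each wt group was the highest, and the genotypes overlapped. The difference was -0.38 ± 0.156 (log2, unadjusted p = 0.0338 and adjusted p = 0.9999 by edgeR's test). It was -0.36 in unstressed and -0.40 in stressed mice (unadjusted p = 0.135 and 0.0964 by edgeR's test). As TPM, which divides by transcript length, the means lay closer, at 46.4 ± 7.78 in het and 48.2 ± 11.3 in wt (SD, n = 6).

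The neighbours with the smallest p were small in change or in level. Higher in het were the zinc finger gene Zfp783 (4.06 ± 0.624 CPM in het, 3.4 ± 0.204 in wt, SD, n = 6) and the caspase gene Casp2 (9.61 ± 0.949 and 8.54 ± 0.501 CPM). Their log2 differences were 0.25 and 0.17. Lower in het were Tcaf2, a regulator of TRP channels (0.374 ± 0.117 and 0.55 ± 0.171 CPM), Sspo, which encodes the secreted protein SCO-spondin (1.53 ± 0.251 and 2 ± 0.574 CPM), and the zinc finger gene Zfp786 (4.25 ± 0.574 and 4.95 ± 0.747 CPM). Their log2 differences were -0.58, -0.38 and -0.21. Zfp786 was the only neighbour with an unadjusted p under 0.05 in stressed mice alone, against 0.57% of all genes, at -0.44 (log2, adjusted p = 0.99992 by edgeR's test). The genotypes overlapped in each of these 5 genes.

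**Figure D5:**
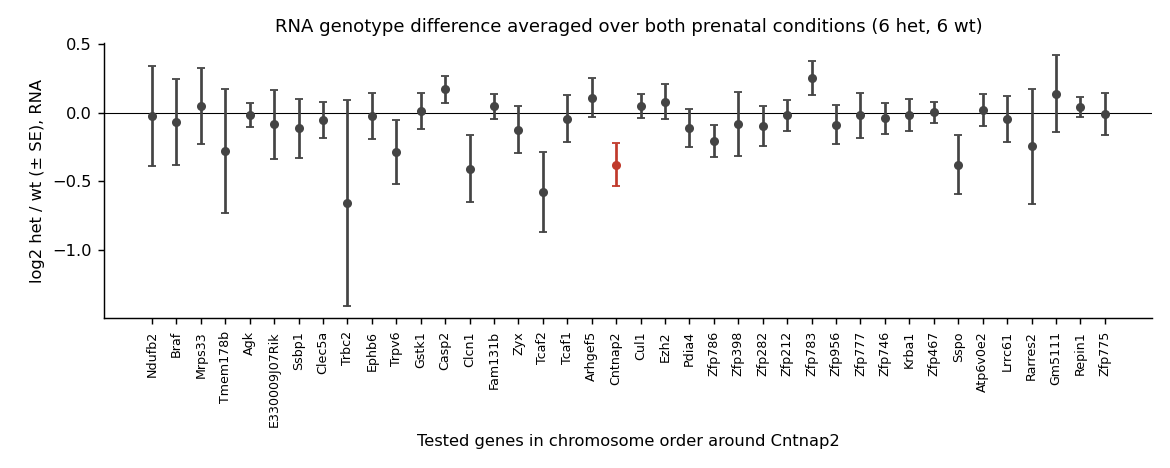
Log2 ratio of het to wt in RNA with its SE (y axis) for 39 of the 40 tested genes nearest to Cntnap2 in chromosome order (x axis) and for Cntnap2 (red), averaged over both prenatal conditions. Cntnap2 lies at -0.38 and its neighbours between -0.66 and 0.25, and none was called.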

How the data were processed

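5hmC-enriched DNA and RNA of striatum were sequenced from 12 mice. Per the file headers, the 5 deposited 5hmC tables give unnormalised counts of reads for each region in each library. The submitters' processing notes name Bowtie 0.12.7 and mm9 for this alignment. The sources used here do not say how the authors picked the regions. The deposited RNA files hold expected counts and TPM from RSEM with Bowtie on mm9 (NCBIM37), per the file headers and the submitters' processing notes.

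Each 5hmC table was fitted alone with edgeR 4.0.16 in R 4.3.3 (filterByExpr, TMM, robust glmQLFit, glmQLFTest), since tables differ in regions. P-values are two-sided, adjusted by Benjamini-Hochberg over all regions of a table, and called at 0.05; the SE is the log2 difference over the square root of F. CPM use library totals multiplied by their TMM factors. A planned fit over all 12 libraries needed 1000 regions identical in both genotype tables; 325 were, so regions with counts for all libraries over any tables were used, a choice made after seeing the data, and pairs by 50% reciprocal overlap were an alternative. Expected counts were rounded and fitted alike. Gene order came from RefSeq (GRCm38.p6), used for names and neighbours only; 94.1% of tested genes matched a chromosome. DESeq2 1.42.0, other scalings, no filter, a replicate block and leaving out each library were tried. Scripts were tested on simulated data.

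Regions, gene lists and rules were chosen with earlier results of these data known. Named regions are all called ones, the 3 smallest p in each direction, in the genotype tables the 2 smallest p in each direction inside the Cntnap2 interval and pairs apart in both, and the region with most counts. Named RNA genes are Cntnap2 and, among its neighbours, the 3 smallest p on each side, higher and lower; 1 of these is not reported here. Replicates are separate mice by their labels, and p-values measure the spread between them. In edgeR's test and DESeq2 the spread of a region or gene is drawn towards that of all. The p-values thus do not rest on the few mice at that region alone. The labels used here name no litter, so mice of a group may share a dam, and no fit accounted for this. Stress was given to dams, so p-values for stress may not measure the spread between dams. A chi-square of 1.07 to 1.76 per region showed more than counting noise between libraries of a group. No library was thus a copy of another's counts, but another library of the same mouse could also pass this check. The animal number in the RNA data of het control replicate 1 differs from its label, and the 5hmC and RNA libraries there may be of 2 mice.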

Additional observations from a re-analysis of the deposited data

How the results depend on the processing

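Over 58 named regions and genes, 735 of 761 alternative fits kept the direction and the side of the threshold; 13 reversed, 11 lost and 2 gained a call. The reversed differences were between -0.19 and -0.002 (log2) as reported, the largest at 45550614. They were the region starting at 52715499 in unstressed mice (0 with RLE scaling, 0.025 with library totals, 0.003 with DESeq2, and -0.07 to 0.04 without 1 library) and under stress in wt mice (-0.024 to 0.01 without 1 library), its counterpart at 52715468 in het mice (-0.163 to 0.017), and the interval regions starting at 45550614 (-0.458 to 0.086) and 45950092 (-0.077 to 0.059). Single values behind these ranges were 0.086 and 0.01 for 45550614, 0.04, 0.027 and 0.016 for 52715499 in unstressed mice, 0.005 and 0.01 in wt mice, 0.017 for 52715468, and 0.059 and 0.026 for 45950092. The number of regions called in unstressed mice was 0 with DESeq2, 0 in the Cntnap2 interval alone, and 0 to 1 without 1 library; in stressed mice it was 0 to 1 without 1 library. For stressed het against unstressed wt it was 0 with library totals, with DESeq2 and in the interval alone, and 0 to 1 without 1 library. For stress in het mice it was 0 to 1: leaving out het control replicate 1 or 3 called the region at 47727608. The 12-library call became 0 with regions paired by 50% overlap, because the called region has no partner there. The unstressed call of the 12-library fit became 0 with DESeq2 and with paired regions, and was 0 to 1 without 1 library; the stress average gave 49 calls with paired regions, where coordinates differ between conditions. Both sets of alternatives were added after seeing the data. The median log2 difference was -0.015 with library totals (0.026 over all regions), -0.079 in the interval and -0.053 to -0.033 without 1 library in unstressed mice, and -0.015 (-0.028 over all regions), 0.239 and -0.013 to 0.012 in stressed mice. It was -0.048 with library totals (-0.031 over all regions) and 0.25 in the interval for stressed het against unstressed wt, and -0.044 (-0.058 over all regions) and, without 1 library, -0.004 to 0.022 for stress in het mice. The share of counts differed by 0.000539 percentage points in unstressed mice, by -0.024 without the region with most counts and by -0.00701 to 0.0147 without 1 library (-0.0065 and -0.0061 among them). In stressed mice it differed by -0.012, by 0.00282 without that region, by 0.000614 in the interval and by -0.0568 to 0.0119 without 1 library (0.000761 and 0.00896 among them), and over 12 libraries by 0.000659 in the interval. The cause of these shifts was not tested.

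With the replicate number as a block, the calls around Cntnap2 were 2 in unstressed mice (32 in the whole table), 0 for stressed het against unstressed wt and 1 for stress in het mice; the added region in the first and last was 47727608. The replicate block changed no other count. The labels give no pairing by number, same-numbered libraries correlated at 0.023 to 0.185 in the unstressed table and at -0.175 to 0.106 in the others, and not every library correlated best with its own number. Depth limits precision: the median count of a region per library was 27 to 35.5 in the interval and 42 to 58.5 over the window, and no detection limit was computed.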
